A study of Mus musculus with 8 samples.

Results

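The replication-dependent histone genes are the clustered genes that supply the nucleosome proteins H2A, H2B, H3 and H4 and the linker histone H1 when DNA is copied. They were taken as all gene symbols that begin with Hist1h, Hist2h, Hist3h or Hist4h, and 68 of the 23929 symbols measured met this rule. The Hist1 cluster on chromosome 13 held 54 of them, the Hist2 cluster on chromosome 3 held 10, the Hist3 cluster on chromosome 11 held 3, and Hist4 on chromosome 6 held 1. By type there were 6 H1, 18 H2A, 19 H2B, 12 H3 and 13 H4 genes. RNA was measured in 4 pro-B cell lines from bone marrow of 129SV mice, grown untreated, with 2 libraries from each line. Pro-B cells are the B cell precursors that assemble the immunoglobulin heavy chain gene. CBE line 1 and CBE line 2 carry the genotype IGCR1-/-, a deletion in the intergenic control region of that gene, and are named after its CTCF-binding elements. The Eµ-deleted line lacks the intronic enhancer of the same gene, and the WT line is labelled wild type. IGCR1-/- is represented by 2 lines, the Eµ deletion and wild type by 1 line each. In every comparison with either of the last 2, a difference between genotypes and a difference between lines cannot be told apart.

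Most of these genes have no introns, and their transcripts normally end in a stem-loop in place of a poly(A) tail. The stem-loop is bound by the protein SLBP, cleavage just after it needs the U7 small nuclear RNA, and the finished mRNA is held high in S phase and degraded when DNA synthesis stops. Libraries made by poly(A) selection, as here, therefore read only those histone transcripts that carry a poly(A) tail or were carried along, and a level in these data is not the level of all histone mRNA in the cell. Some histone genes, among them Hist1h1c, Hist1h2bc and Hist2h2be, are known to give polyadenylated transcripts as well.

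The stem-loop sites of 6 genes, from the GENCODE vM21 transcripts of GRCm38 in RNA sense, show what the annotated transcripts of each type carry, with the 16 bases of the stem-loop in capitals.
Hist1h1d: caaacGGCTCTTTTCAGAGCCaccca
Hist1h2ag: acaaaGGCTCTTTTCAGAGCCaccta
Hist1h2bk: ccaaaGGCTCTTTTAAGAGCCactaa
Hist1h3g: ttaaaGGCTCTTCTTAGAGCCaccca
Hist1h4d: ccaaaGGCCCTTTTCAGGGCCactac
Hist4h4: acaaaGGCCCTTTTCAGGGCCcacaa
The first 6 and last 6 capital letters pair with each other to form the stem. Of the 47 members with at least 60 annotated bases after the stop codon, 44 held such a sequence. The 46 members that matched in all used 8 different sequences, of which the commonest, that of Hist1h1d and Hist1h2ag, stood in 26 members and that of Hist1h4d in 7. In 23 members the annotated transcript ran on for more than 100 bases past the stem-loop, by 2445 bases in Hist4h4, 2010 in Hist1h2ac and 840 in Hist1h1c. No match was found in the annotated transcript of Hist1h2bc or Hist2h2be.

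A second pair of sequences bears on how H2A values are read. Coding bases 181 to 255, counted from the start codon, are shown for Hist1h2ap, the member of highest mean FPKM, and for H2afx, the separate gene of the variant histone H2A.X, which is also expressed outside S phase and has a polyadenylated transcript. The files give FPKM, the number of reads corrected for transcript length and library size, from single reads of 75 bases.
Hist1h2ap: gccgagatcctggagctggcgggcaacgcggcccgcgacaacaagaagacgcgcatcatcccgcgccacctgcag
H2afx: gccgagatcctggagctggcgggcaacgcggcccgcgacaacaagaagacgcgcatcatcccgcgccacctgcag
The 75 bases did not differ between the genes, so a read of that stretch fits both. A stretch of 75 bases identical in H2afx was found in 13 of the 18 H2A members and in no H1, H2B, H3 or H4 member. Allowing 2 mismatches, a median of 37.6% of the 75-base windows of an H2A coding sequence had a match in H2afx.

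Sharing was also common within the family. Over the 67 members with an annotated coding transcript, a median of 98.1% of 75-base coding windows had a match with up to 2 mismatches in another member. Windows here and below were cut from the coding sequence only, so the rest of each transcript is not covered. The sources used here do not say how reads that fit several genes were divided, so values of single H2A, H2B, H3 and H4 genes are uncertain. Sums over a type can still hold reads shared with genes outside the family: a median of 50.8% of H2A windows, 40.1% of H3 windows, 3.58% of H2B windows and 0% of H1 and H4 windows matched a gene that is no member. For Hist3h2a this was 100% of windows, most often with a match in Trim17, so its reads cannot be assigned to it alone. At least 50% of windows were unique in 12 members: the 6 H1 genes, Hist1h2aa, Hist1h2ba, Hist2h2ab, Hist2h2be, Hist2h4 and Hist4h4.

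The libraries held 31.3 to 49.5 M reads, as implied by the deposited intervals, of which 3228 to 5983 reads per library fell on histone members. Their summed FPKM made up 0.0353 to 0.0595% of the FPKM of all genes. The 6 B lineage genes Cd79a, Cd79b, Pax5, Ebf1, Vpreb1 and Igll1 summed to 2340 to 3467 FPKM per library. A list of 9 myeloid, T cell and erythroid markers summed to 8.97 and 4.02 FPKM in CBE line 1, 2.61 and 1.71 FPKM in CBE line 2, 3.27 and 2.16 FPKM in the Eµ-deleted line, and 6.89 and 3.47 FPKM in WT, and its part in the results below was not tested. The T cell genes Cd3e and Cd4 were listed at 0 in all 8 libraries. Cd3d, also on the list, had 0.108 and 0.123 FPKM in WT and at most 0.0157 FPKM in the other lines. Of the myeloid markers, Itgam rose in CBE line 1 and CBE line 2 and Lyz2 fell in CBE line 2, against WT in the test used below.

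Levels were low. All 68 members together summed to 267 and 304 FPKM in CBE line 1, 198 and 181 FPKM in CBE line 2, 188 and 243 FPKM in the Eµ-deleted line, and 194 and 196 FPKM in WT. H2afx alone stood at 195 and 362 FPKM in CBE line 1, 279 and 303 FPKM in CBE line 2, 266 and 297 FPKM in the Eµ-deleted line, and 271 and 254 FPKM in WT. By mean over the 8 libraries, 3 members were under 0.1 FPKM, 12 were from 0.1 to under 1, 39 were from 1 to under 5, and 14 were at 5 or more. The 14 were 12 H2A genes and the H4 genes Hist1h4i and Hist1h4d. H2A made up 54.8% of the summed FPKM of the family, H2B 15.9%, H4 15.8%, H3 9.61% and H1 3.86%. The Hist1 cluster held 85.0% of it. The members of highest mean FPKM in each type were Hist1h2ap (21.1), Hist2h2aa1 (11.7) and Hist3h2a (10.9) for H2A, Hist1h4i (6.94), Hist1h4d (6.01) and Hist1h4n (3.92) for H4, Hist1h2bc (4.94), Hist1h2bk (3.15) and Hist1h2bg (2.79) for H2B, Hist1h3c (3.90), Hist1h3g (2.37) and Hist1h3h (2.25) for H3, and Hist1h1c (3.30), Hist1h1a (2.00) and Hist1h1d (1.16) for H1.

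CBE line 1 stood apart in the sums of H2B, H3 and H4, a pattern of the Hist1 cluster. The 19 H2B genes summed to 67.2 and 54.4 FPKM in CBE line 1, 29.9 and 21.4 FPKM in CBE line 2, 21.2 and 39.4 FPKM in the Eµ-deleted line, and 23.9 and 25.0 FPKM in WT. The 13 H4 genes summed to 55.6 and 53.2 FPKM in CBE line 1, 33.0 and 25.5 FPKM in CBE line 2, 29.1 and 31.5 FPKM in the Eµ-deleted line, and 26.4 and 25.2 FPKM in WT. Both CBE line 1 libraries were above the 6 others for each of these types. The 12 H3 genes were also highest in CBE line 1, with 35.3 and 27.9 FPKM in CBE line 1, 17.7 and 16.4 FPKM in CBE line 2, 18.9 and 15.8 FPKM in the Eµ-deleted line, and 19.5 and 18.7 FPKM in WT. The 18 H2A genes summed to 87.0 and 159 FPKM in CBE line 1, 111 and 114 FPKM in CBE line 2, 108 and 151 FPKM in the Eµ-deleted line, and 120 and 123 FPKM in WT. For H2A the CBE line 1 libraries were the lowest and the highest of the 8. The 6 H1 genes summed to 22.0 and 9.86 FPKM in CBE line 1, 7.24 and 4.41 FPKM in CBE line 2, 11.7 and 5.53 FPKM in the Eµ-deleted line, and 3.82 and 3.97 FPKM in WT, and here CBE line 1 was above WT but overlapped the Eµ-deleted line. Without H2A, the other 50 members summed to 163 ± 24.6 FPKM in CBE line 1, 77.7 ± 14.2 FPKM in CBE line 2, 86.6 ± 7.95 FPKM in the Eµ-deleted line, and 73.3 ± 0.534 FPKM in WT (SD, n = 2 each). All Hist1 genes summed to 244 and 252 FPKM in CBE line 1 and to at most 178 FPKM in any other library. In Hist2, CBE line 1 overlapped the Eµ-deleted line. There H2B summed to 3.16 and 4.69 FPKM in CBE line 1 against 1.96 and 7.83 FPKM. H3 had 2.07 and 3.42 against 3.15 and 2.76 FPKM, and H4 1.31 and 1.65 against 0.646 and 2.53 FPKM.

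**Figure D1:**
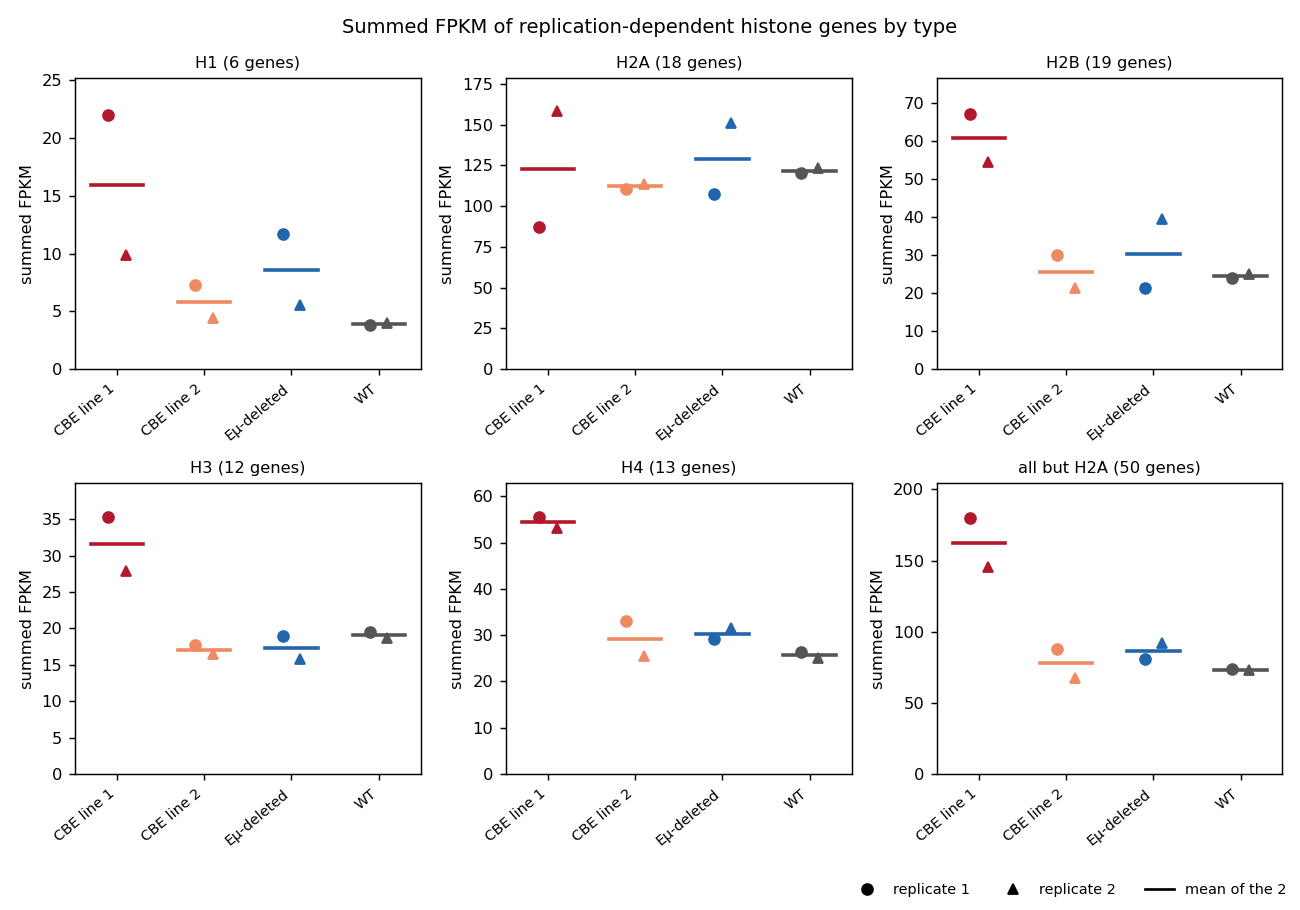
Summed FPKM (vertical axes, each from 0) of the histone genes of each type and of all but H2A, with 1 point per library (circle for replicate 1, triangle for replicate 2) and a bar at the mean of each line. CBE line 1 is above the other 3 lines for H2B, H3, H4 and the 50 genes without H2A, while its H2A libraries lie at 87.0 and 159 FPKM on either side of the rest.

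Over all 8 libraries, the H2A values varied less when taken as a share of H2afx. The 13 members that share 75 identical bases with H2afx summed to 40.1 and 36.3% of its FPKM in CBE line 1. The sums were 36.3 and 34.8% of it in CBE line 2, 37.2 and 39.9% for the Eµ-deleted line, and 42.0 and 45.4% for WT. The highest and lowest of these shares differed 1.30-fold, whereas the summed FPKM itself differed 1.69-fold. That sum was 78.0 and 132 FPKM in CBE line 1 and lay between 99.0 and 119 FPKM in the other lines. Within those other lines the share already ran from 34.8 to 45.4%, so its narrower range rests on CBE line 1. For the 50 members of other types, the same share was 92.6 and 40.1% in CBE line 1. It was 31.5 and 22.3% in CBE line 2, 30.4 and 31.1% for the Eµ-deleted line, and 27.2 and 28.7% for WT, a 4.15-fold range. Each of the 11 sharing members with a mean of 5 FPKM or more kept its share of H2afx within 1.16-fold to 1.42-fold over the 8 libraries. Among them, Hist1h2ag had 7.58 and 12.3 FPKM in CBE line 1, 8.86 and 9.12 FPKM in CBE line 2, 8.77 and 9.69 FPKM in the Eµ-deleted line, and 10.8 and 10.6 FPKM in WT. Across the 8 libraries the summed FPKM of the 13 members and H2afx had a Pearson r of 0.849 and a Spearman rho of 0.619, against -0.206 and -0.0476 for the 50 members of other types. Without the CBE line 1 libraries, whose H2afx lay farthest from the median, r was 0.0254 and rho 0.0857 for the 13 members, so the relation rests on those 2 libraries. These are descriptions over libraries that come in pairs from 4 lines, and reads shared between the genes enter both sides.

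**Figure D2:**
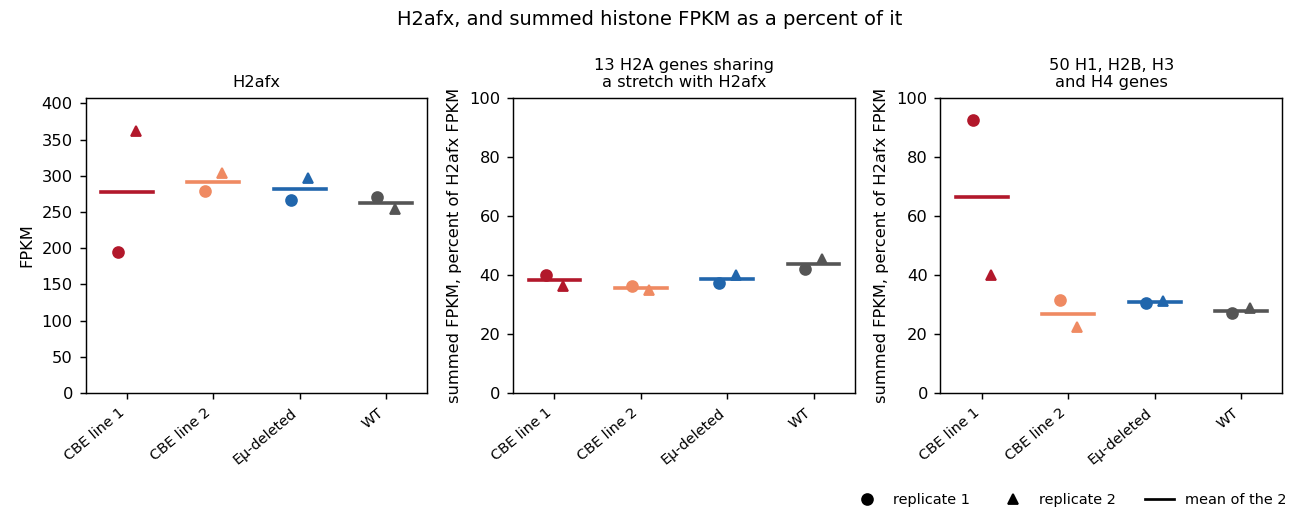
H2afx FPKM (left), and the summed FPKM of the 13 H2A genes with a stretch identical in H2afx (middle) and of the 50 H1, H2B, H3 and H4 genes (right), each as a percent of H2afx FPKM in the same library, with bars at the mean of each line. The 13 H2A genes stay between 34.8 and 45.4% in all 8 libraries, and the other 50 range from 22.3 to 92.6%.

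The shares of other H2A members varied more. Hist1h2ak, whose closest 75-base stretch differs from H2afx at 1 base, had 2.87 and 2.39 FPKM in CBE line 1, 1.34 and 1.43 FPKM in CBE line 2, 1.05 and 2.04 FPKM in the Eµ-deleted line, and 1.18 and 1.04 FPKM in WT. Its share of H2afx varied 3.74-fold. Hist3h2a varied 5.91-fold on the same measure and Hist2h2ac 5.22-fold. The most variable were Hist1h2ao and Hist2h2aa2, which do share a stretch with H2afx but had means of 0.141 and 0.190 FPKM. Hist1h2ak and Hist2h2ac were also low, with means of 1.67 and 0.812 FPKM. For these genes the level and the sharing cannot be told apart.

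The comparison of CBE line 1 with WT asks which genes differ in a line that lost the IGCR1 elements. Of the 57 members that passed the filter on low values, 25 rose and 0 fell (limma with Benjamini-Hochberg adjustment over all 10479 genes tested), against 10.9% of all genes called higher and 8.54% called lower. Because members share sequence, the same reads may enter several of them. Counts of members, here and below, are therefore not counts of independent genes. Of the 12 members named above for mostly unique windows, 8 were tested. Among these 8, 2 rose against WT, 1 was higher against CBE line 2 and 0 against the Eµ-deleted line. Differences are in log2(FPKM + 1), which understates changes of genes with low values. At an unadjusted p under 0.05, 36 members were higher and 0 lower, where 32.3% of all genes passed in either direction. The median difference was 0.76 over the 57 members and 0.02 over all genes tested. By type, 11 of 15 H2B, 8 of 13 H4, 3 of 10 H3, 2 of 5 H1 and 1 of 14 H2A members rose. The H2B gene Hist1h2bm, counted here, reached 1 FPKM only in the CBE line 1 libraries (1.86 and 1.07). It passed the filter only through the line where it is high. The same holds for Hist1h1e, also counted, which outside CBE line 1 reached 1 FPKM only in Eµ-deleted replicate 1 (1.18). Both genes also enter the counts of separated libraries that follow. Hist1h1a, Hist1h1b, Hist1h1d, Hist2h2ac and Hist2h4 were not called but also needed CBE line 1 to pass the filter. They are among the 41 separated members given next. Both CBE line 1 libraries were above both WT libraries for 41 of the 57 members, where 34.1% of all genes were, and below both for 0, where 28.6% were. They were above all 6 other libraries for 29 members, where 6.92% of all genes were, and below all 6 for 0, where 6.19% were. The 29 were 12 H2B, 8 H4, 7 H3, 1 H1 and 1 H2A genes. The count of rises depended on single libraries: 13 rose without CBE line 1 replicate 1, 7 without WT replicate 1 and 6 without WT replicate 2, where a line with 1 library was assumed to vary like the others. Without CBE line 1 replicate 2, 27 members rose and 5 were called lower, which were the H2A genes Hist1h2ab, Hist1h2ac, Hist1h2ag, Hist1h2ai and Hist1h2an.

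**Figure D3:**
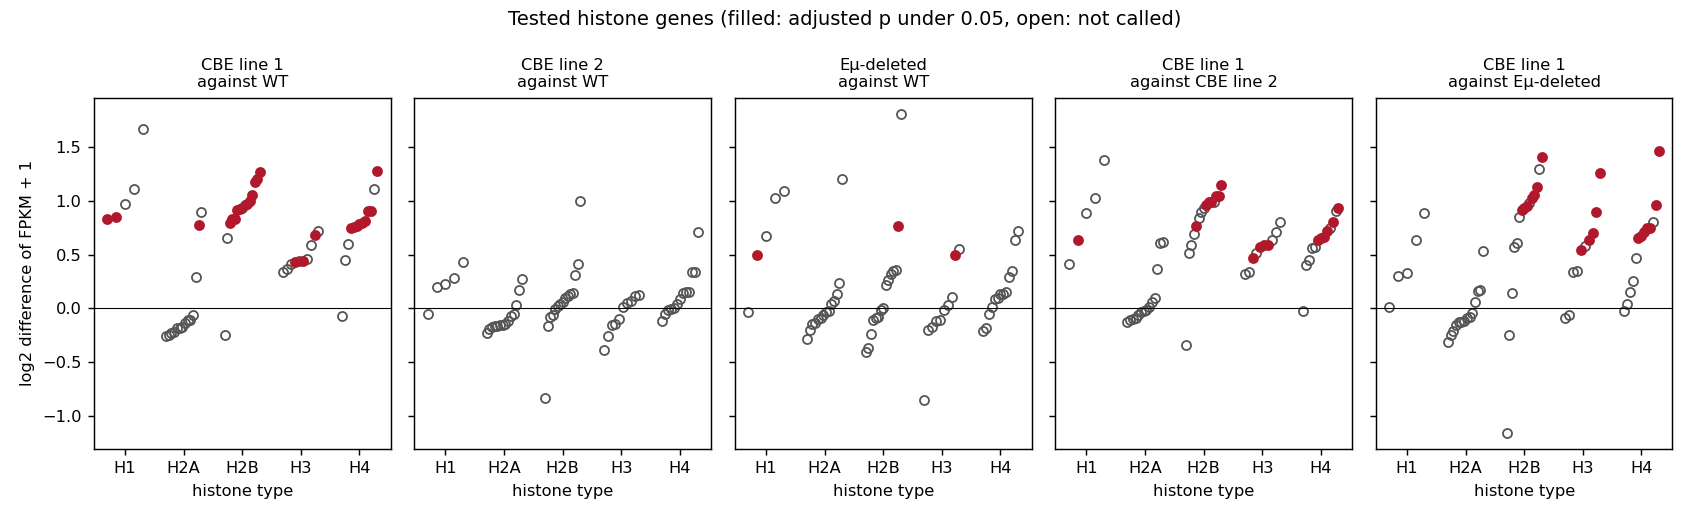
Log2 difference of FPKM + 1 (vertical axis) of each of the 57 tested histone genes by type in 5 comparisons, filled where the adjusted p was under 0.05 and open otherwise. The filled points of CBE line 1 all lie above 0, in H1, H2A (Hist1h2ak alone), H2B, H3 and H4 against WT, in H1, H2B, H3 and H4 against CBE line 2, and in H2B, H3 and H4 against the Eµ-deleted line, and 3 are filled for the Eµ-deleted line and none for CBE line 2 against WT.

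The H4 gene Hist1h4d (chromosome 13, 23673471 to 23673838 of mm9) showed the largest of the called rises on the log2(FPKM + 1) scale, an order that depends on the pseudocount. It had 12.0 and 10.4 FPKM in CBE line 1, 6.24 and 4.58 FPKM in CBE line 2, 3.44 and 3.37 FPKM in the Eµ-deleted line, and 4.54 and 3.54 FPKM in WT. CBE line 1 was above the 6 other libraries, with a log2 difference from WT of 1.28 (SE 0.16, limma adjusted p = 0.00242). This call held under all 20 alternative settings, with an adjusted p of at most 0.0253. With a pseudocount of 0.1 its log2 difference was 1.46, below that of Hist1h2be at 1.71.

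The next 5 rises were H2B genes of the Hist1 cluster. Hist1h2be had 5.39 and 4.18 FPKM in CBE line 1 and 1.31 and 1.46 FPKM in WT, a log2 difference of 1.27 (SE 0.23, limma adjusted p = 0.00971). Its annotated locus spans 37455 bases, much longer than a histone gene, so its value is less certain than the rest. Hist1h2bp had 5.04 and 2.83 FPKM in CBE line 1 and 1.32 and 0.889 FPKM in WT (log2 difference 1.20, limma adjusted p = 0.0313). Hist1h2bl had 6.31 and 3.82 FPKM in CBE line 1 and 1.75 and 1.50 FPKM in WT (1.18, limma adjusted p = 0.00875). These 3 genes did not overlap between the lines, and in each the first CBE line 1 library was the higher one. Hist1h2bg had 6.35 and 4.14 FPKM in CBE line 1 and 2.08 and 1.85 FPKM in WT (1.05, limma adjusted p = 0.0176). Hist1h2bj had 6.40 and 4.26 FPKM in CBE line 1 and 2.43 and 1.82 FPKM in WT (1.00, limma adjusted p = 0.0209). Calls of these 5 genes were lost in 1 to 7 of 19 alternative settings each, always among them without WT replicate 2. Hist1h2bc, the H2B gene of highest mean FPKM, had 6.06 and 11.8 FPKM in CBE line 1 and 3.47 and 4.56 FPKM in WT, and did not pass (limma adjusted p = 0.129).

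Neighbouring H2A and H2B genes differed. Many of these genes lie in divergent pairs that share the sequence between their starts as a promoter. In mm9, 7 such Hist1 pairs with both genes tested had loci 177 to 280 bases apart. The H2B gene had the larger difference between CBE line 1 and WT in all 7 pairs, and 6 of the H2B genes rose, against 1 of the H2A genes. The log2 differences were 0.79 to 1.20 for the H2B genes and -0.24 to 0.78 for the H2A genes. In 6 pairs the H2A gene held the stretch identical in H2afx and had a difference below 0. In the remaining pair, Hist1h2ak and Hist1h2bn, both rose, with log2 differences of 0.78 (SE 0.19, limma adjusted p = 0.0295) and 0.83 (SE 0.21, limma adjusted p = 0.0368). Hist1h2bn had 4.30 and 2.47 FPKM in CBE line 1 and 1.28 and 1.54 FPKM in WT.

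**Figure D4:**
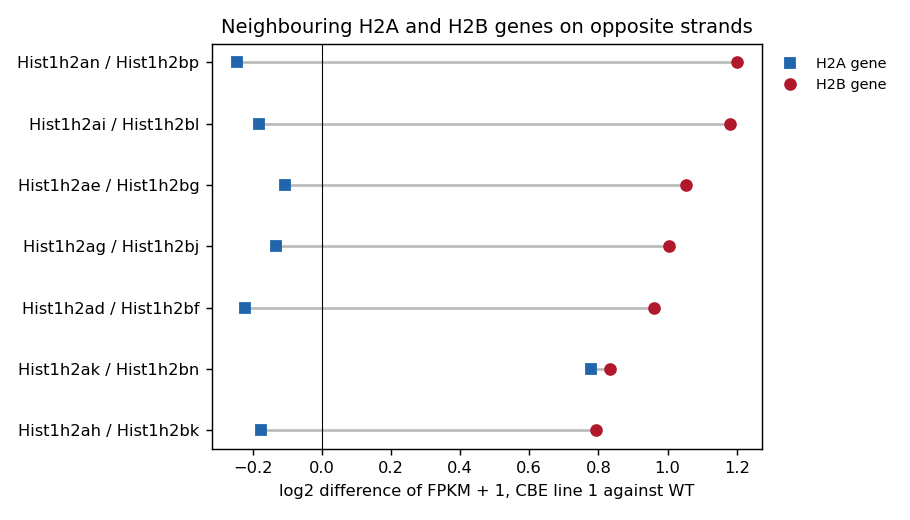
Log2 difference of FPKM + 1 between CBE line 1 and WT (horizontal axis) for 7 pairs of neighbouring H2A (squares) and H2B (circles) genes on opposite strands. The H2B genes lie at 0.79 to 1.20, and the H2A genes lie just below 0 in all pairs except that of Hist1h2ak, at 0.78.

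The promoter letters of the types differ as well. The sequences from RefSeq (GRCm38.p6), 250 bases before to 50 after the start, are shown for an H2B gene and an H4 gene that both rose in CBE line 1, with 3 motifs in capitals: ATTTGCAT, the octamer of Oct factors, the CCAAT box of the factor NF-Y, and the core promoter element TATAAA. Both strands were searched, and each motif was counted by itself whether or not it overlapped another. The window of Hist1h2bk is chr13:22035571-22035870 on the plus strand, and that of Hist1h4d is chr13:23581318-23581617 on the plus strand.
Hist1h2bk: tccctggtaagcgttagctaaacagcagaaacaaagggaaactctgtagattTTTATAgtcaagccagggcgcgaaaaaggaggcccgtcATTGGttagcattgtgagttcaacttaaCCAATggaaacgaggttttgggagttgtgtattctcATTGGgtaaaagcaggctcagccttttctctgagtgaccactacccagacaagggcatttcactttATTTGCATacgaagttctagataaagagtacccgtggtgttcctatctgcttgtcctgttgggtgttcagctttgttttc
Hist1h4d: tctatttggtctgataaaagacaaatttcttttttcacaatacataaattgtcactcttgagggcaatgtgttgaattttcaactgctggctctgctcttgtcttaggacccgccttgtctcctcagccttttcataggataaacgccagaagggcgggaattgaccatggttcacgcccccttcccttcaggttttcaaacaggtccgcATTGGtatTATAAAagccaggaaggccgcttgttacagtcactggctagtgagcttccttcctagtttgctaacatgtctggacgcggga
Of the 61 members with a promoter in the table, 13 held the octamer (7 of 17 H2A and 6 of 16 H2B, and none of the H1, H3 and H4 windows), against 1.75% of all promoters. CCAAT stood in 52 of 61, including every H1, H2A, H2B and H3 window and 3 of 12 H4 windows, against 37.9% of all promoters. TATAAA stood in 35 of 61, against 14.2% of all promoters. AAACACA, an element known from H1 promoters, stood in 5 of 6 H1 windows, against 7.14% of all promoters. A match is a run of letters and not a measured binding site.

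Linker histone genes, which have mostly unique sequence, gave 2 rises in CBE line 1 against WT and large differences between libraries of the same line. Hist1h1e, a somatic H1 gene, had 1.88 and 1.32 FPKM in CBE line 1, 0.731 and 0.607 FPKM in CBE line 2, 1.18 and 0.930 FPKM in the Eµ-deleted line, and 0.469 and 0.443 FPKM in WT. It rose in CBE line 1 against WT (log2 difference 0.83, SE 0.13, limma adjusted p = 0.00558). Hist1h1c, an H1 gene with a known polyadenylated transcript, had 4.04 and 6.11 FPKM in CBE line 1, 4.49 and 2.66 FPKM in CBE line 2, 2.39 and 2.10 FPKM in the Eµ-deleted line, and 2.17 and 2.48 FPKM in WT. It also rose in CBE line 1 (0.85, SE 0.23, limma adjusted p = 0.0464).

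Hist1h1a (chromosome 13, 23855537 to 23856281 of mm9) had 9.15 and 0.831 FPKM in CBE line 1, 0.852 and 0.482 FPKM in CBE line 2, 3.06 and 0.879 FPKM in the Eµ-deleted line, and 0.366 and 0.351 FPKM in WT. Hist1h1b had 3.67 and 0.508 FPKM in CBE line 1, 0.691 and 0.221 FPKM in CBE line 2, 2.87 and 0.777 FPKM in the Eµ-deleted line, and 0.224 and 0.234 FPKM in WT. Hist1h1d had 3.22 and 1.09 FPKM in CBE line 1, 0.475 and 0.442 FPKM in CBE line 2, 2.16 and 0.847 FPKM in the Eµ-deleted line, and 0.570 and 0.463 FPKM in WT. For all 3 genes replicate 1 was several times replicate 2 in both CBE line 1 and the Eµ-deleted line, while the WT libraries lay close together. None passed the test in CBE line 1 against WT (limma adjusted p = 0.183, 0.231 and 0.113 in the order named), although both CBE line 1 libraries were above both WT libraries. Hist1h1t, the testis H1 gene, was listed at 0 in 7 libraries and at 0.0207 FPKM in WT replicate 1.

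3 genes of the Hist2 and Hist3 clusters were higher in replicate 2 than in replicate 1 of CBE line 1 and of the Eµ-deleted line. The direction was not particular to them, and Hist1h2bc and Hist2h4 showed it in both lines. Of the 18 H2A members, 13 were higher and 4 lower in replicate 2 of CBE line 1. In the Eµ-deleted line 15 were higher and 2 lower. Hist3h2a, the H2A gene of the Hist3 cluster (chromosome 11, 58768187 to 58768694 of mm9), had 4.55 and 23.6 FPKM in CBE line 1, 6.88 and 6.30 FPKM in CBE line 2, 5.85 and 29.5 FPKM in the Eµ-deleted line, and 4.55 and 6.09 FPKM in WT. Hist3h2ba, its H2B neighbour, had 0.128 and 1.19 FPKM in CBE line 1, 0.788 and 1.23 FPKM in CBE line 2, 0.485 and 7.28 FPKM in the Eµ-deleted line, and was listed at 0 in both WT libraries. Hist2h2be, an H2B gene with a known polyadenylated transcript, had 1.11 and 3.20 FPKM in CBE line 1, 0.898 and 1.07 FPKM in CBE line 2, 0.806 and 5.95 FPKM in the Eµ-deleted line, and 1.96 and 3.24 FPKM in WT. This is the reverse of Hist1h1a, Hist1h1b and Hist1h1d. None of the 3 passed the test against WT in any line, although Hist2h2be was called lower in CBE line 2 with only the compared libraries. Hist3h2bb-ps, the pseudogene of the Hist3 cluster, had 0.0756 and 0.250 FPKM in CBE line 1, 0.102 and 0.218 FPKM in CBE line 2, 0.160 and 0.673 FPKM in the Eµ-deleted line, and was listed at 0 in both WT libraries. Hist4h4, the single gene of the Hist4 locus (chromosome 6, 136752514 to 136752952 of mm9), had 1.68 and 0.715 FPKM in CBE line 1, 1.58 and 0.830 FPKM in CBE line 2, 1.49 and 0.896 FPKM in the Eµ-deleted line, and 1.58 and 0.951 FPKM in WT. Its line means lay within 1.19 to 1.27 FPKM, less apart than the libraries of each line.

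**Figure D5:**
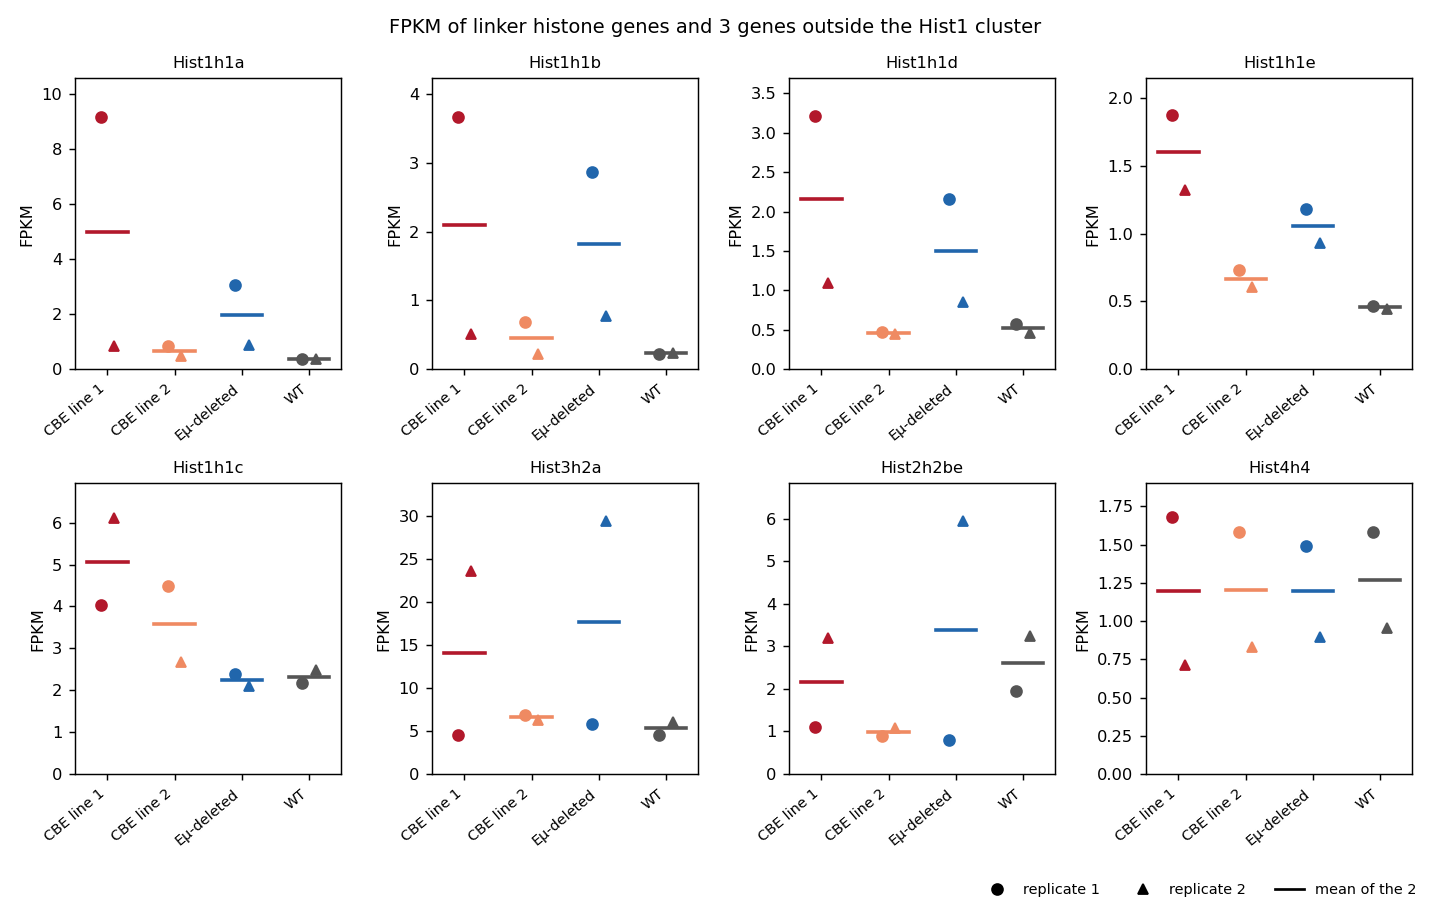
FPKM (vertical axes, each from 0) of 5 linker histone genes and of Hist3h2a, Hist2h2be and Hist4h4 in each library, with bars at the mean of each line. In CBE line 1 and the Eµ-deleted line, replicate 1 (circles) is the higher library for Hist1h1a, Hist1h1b and Hist1h1d, and replicate 2 (triangles) for Hist3h2a and Hist2h2be.

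Other measures moved with these libraries. H1f0, a linker histone gene known to be high in non-dividing cells, had 9.58 and 32.8 FPKM in CBE line 1, 18.3 and 22.9 FPKM in CBE line 2, 86.6 and 331 FPKM in the Eµ-deleted line, and 47.0 and 67.6 FPKM in WT. The S phase gene Mcm2, a subunit of the replicative helicase, had 119 and 90.4 FPKM in CBE line 1, 120 and 103 FPKM in CBE line 2, 112 and 72.2 FPKM in the Eµ-deleted line, and 86.1 and 83.0 FPKM in WT. A list of 22 S phase and proliferation genes summed to 2434 and 1947 FPKM in CBE line 1, 2357 and 2129 FPKM in CBE line 2, 2304 and 1762 FPKM in the Eµ-deleted line, and 1774 and 1649 FPKM in WT. The part of these differences in the histone values was not tested.

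The genes listed as having known polyadenylated transcripts gave no common direction. Of 8 such members 7 passed the filter, 1 rose in CBE line 1 against WT (Hist1h1c) and none in the other lines, and the median log2 difference from WT was -0.06 for CBE line 1, -0.05 for CBE line 2 and -0.04 for the Eµ-deleted line. Over all genes tested, 10.9%, 10.5% and 11.3% were called higher against WT, in the same order of lines. With 7 genes, counts of 1 or 0 do not set this list apart from those shares. Hist1h2ac and Hist2h2aa1 on this list hold the stretch identical in H2afx. Hist1h2ac had 5.31 and 9.26 FPKM in CBE line 1, 7.23 and 7.54 FPKM in CBE line 2, 6.85 and 8.21 FPKM in the Eµ-deleted line, and 8.35 and 8.43 FPKM in WT. Hist2h2aa1 had 8.35 and 14.8 FPKM in CBE line 1, 11.8 and 12.2 FPKM in CBE line 2, 10.7 and 12.3 FPKM in the Eµ-deleted line, and 11.6 and 11.8 FPKM in WT. Hist2h2aa2, its near-identical copy, was at 0.569 FPKM or lower in every library. Of the testis genes, Hist1h2aa was listed at 0 in all 8 libraries, and Hist1h2ba had 0.900 and 1.12 FPKM in CBE line 1, 0.468 and 0.379 FPKM in CBE line 2, 0.406 and 0.584 FPKM in the Eµ-deleted line, and 0.510 and 0.499 FPKM in WT.

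CBE line 2, which shares the genotype of CBE line 1, gave 0 higher and 0 lower members against WT by limma, with 10.5% of all genes called higher and 8.19% lower. At an unadjusted p under 0.05 there was 1 member, where 32.1% of all genes passed. Both CBE line 2 libraries were above both WT libraries for 12 members (40.2% of all genes) and below for 15 (30.4% of all genes). The smallest adjusted p over the 57 members was 0.156, and their median log2 difference was 0.03, against 0.04 over all genes tested.

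The lines of the same genotype were then set against each other. In CBE line 1 against CBE line 2, 18 of 57 members were higher and 0 lower, with 5.03% of all genes called higher and 5.17% lower. Both CBE line 1 libraries were above both CBE line 2 libraries for 38 members, where 24.1% of all genes were, and below for 0, where 29.0% were. The 18 were 7 H2B, 6 H4, 4 H3 and 1 H1 genes and no H2A gene. The largest were 6 H2B genes. Hist1h2bh had 3.17 and 2.61 FPKM in CBE line 1 and 1.08 and 0.841 FPKM in CBE line 2, with a log2 difference of 0.99 (SE 0.11, limma adjusted p = 0.00268), and this call held in all 19 settings. Hist1h2bb had 4.70 and 2.64 FPKM in CBE line 1 and 1.54 and 0.921 FPKM in CBE line 2 (log2 difference 1.04, limma adjusted p = 0.0331). Hist1h2be, at 1.15, had the largest difference, followed by Hist1h2bb, Hist1h2bl at 1.04, Hist1h2bg at 0.99, Hist1h2bh, and Hist1h2bj at 0.97. The calls of these genes other than Hist1h2bh were lost in 6 to 9 of 19 settings each. At an unadjusted p under 0.05, 35 members were higher and 0 lower, where 23.3% of all genes passed in either direction. The count of calls was 2 without CBE line 1 replicate 1, 6 without CBE line 2 replicate 1, 1 without CBE line 2 replicate 2, and 5 without either WT library.

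The Eµ-deleted line against WT gave 3 higher and 0 lower members, with 11.3% of all genes called higher and 10.4% lower. Both Eµ-deleted libraries were above both WT libraries for 15 members (32.6% of all genes) and below for 11 (29.9% of all genes). Hist2h2bb, an H2B gene, had 1.16 and 1.89 FPKM in the Eµ-deleted line and 0.342 and 0.596 FPKM in WT (log2 difference 0.77, SE 0.18, limma adjusted p = 0.0252). Hist2h3b, an H3 gene of the same cluster, had 1.30 and 1.10 FPKM in the Eµ-deleted line and 0.610 and 0.501 FPKM in WT (0.50, SE 0.13, limma adjusted p = 0.0413). Outside the Eµ-deleted line, Hist2h3b reached 1 FPKM only in CBE line 1 replicate 2 (1.35). It therefore passed the filter only through the Eµ-deleted line. The third was Hist1h1e (0.50, SE 0.13, limma adjusted p = 0.0380). At an unadjusted p under 0.05, 5 members were higher and 1 lower, where 36.2% of all genes passed in either direction. The count of calls was 0 without either WT library, without either CBE line 2 library or without Eµ-deleted replicate 2, and 5 without Eµ-deleted replicate 1, of which 1 was among the 3. Hist1h3c, the H3 gene of highest mean FPKM, had 1.83 and 2.03 FPKM in the Eµ-deleted line and 4.30 and 4.24 FPKM in WT, and did not pass here (log2 difference -0.85, limma adjusted p = 0.0727). It was called lower with only the compared libraries and without either CBE line 1 library.

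Between the mutants, CBE line 1 against the Eµ-deleted line gave 19 higher and 0 lower members, with 6.02% of all genes called higher and 4.01% lower. Both CBE line 1 libraries were above both Eµ-deleted libraries for 31 members, where 21.6% of all genes were, and below for 0, where 20.7% were. The calls were 7 H2B, 7 H4 and 5 H3 genes. Hist1h4d had the largest difference on this scale (1.47, SE 0.16, limma adjusted p = 0.00231) and held in all 20 settings. Hist1h3c had 8.75 and 4.05 FPKM in CBE line 1 and 1.83 and 2.03 FPKM in the Eµ-deleted line (log2 difference 1.26, SE 0.28, limma adjusted p = 0.0341). Hist1h2bk had 6.68 and 3.88 FPKM in CBE line 1 and 2.02 and 1.97 FPKM in the Eµ-deleted line (1.03, limma adjusted p = 0.0292). Hist1h2bj, Hist1h2bg and Hist1h2bb differed by 1.41, 1.13 and 1.05. The calls of these 5 genes were lost in 1 to 10 of 19 settings each, fewest for Hist1h2bj and most for Hist1h2bk. At an unadjusted p under 0.05, 31 members were higher and 0 lower, where 22.6% of all genes passed in either direction. The count of calls was 6 without Eµ-deleted replicate 2, 10 without Eµ-deleted replicate 1, 11 without either CBE line 2 library, and 7 without CBE line 1 replicate 1 or without either WT library.

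Genes that make, process and degrade histone mRNA are read against the 10.9% of all genes called higher and 8.54% called lower in CBE line 1 against WT. Slbp, the stem-loop binding protein gene, had 104 and 92.3 FPKM in CBE line 1, 118 and 113 FPKM in CBE line 2, 102 and 85.0 FPKM in the Eµ-deleted line, and 83.3 and 82.1 FPKM in WT. It rose in CBE line 2 against WT (log2 difference 0.48, SE 0.12, limma adjusted p = 0.0318) and did not pass in CBE line 1 (0.24, limma adjusted p = 0.210). Npat, which activates histone transcription in S phase, had 7.04 and 7.39 FPKM in CBE line 1, 7.58 and 7.61 FPKM in CBE line 2, 6.63 and 7.82 FPKM in the Eµ-deleted line, and 5.86 and 6.23 FPKM in WT, and passed in no comparison. Eri1, an exonuclease that trims the stem-loop end, had 27.7 and 29.2 FPKM in CBE line 1, 34.2 and 33.8 FPKM in CBE line 2, 26.4 and 27.2 FPKM in the Eµ-deleted line, and 24.4 and 23.7 FPKM in WT. Eri1 rose in CBE line 2 (0.48, SE 0.08, limma adjusted p = 0.0075).

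Of 15 genes for processing of histone pre-mRNA, 1 rose and 1 fell in CBE line 1 against WT: Sympk, a scaffold of the cleavage complex, by 0.33, and Cstf2t, a relative of a cleavage factor subunit, which fell by 0.67 on the log2 scale. Cstf2t was also called lower in the Eµ-deleted line against WT (-0.64). Of 8 decay factors 3 (37.5%) rose in CBE line 1, namely the decapping enzyme gene Dcp2 (0.70), Exosc10 (0.40) and Zcchc11 (0.39). Against WT, Exosc10 also rose in CBE line 2 (0.44) and Zcchc11 in the Eµ-deleted line (0.44). Dcp2 had 15.1 and 15.2 FPKM in CBE line 1, 10.3 and 10.6 FPKM in CBE line 2, 10.6 and 10.2 FPKM in the Eµ-deleted line, and 9.23 and 8.65 FPKM in WT, and was also higher in CBE line 1 than in CBE line 2 (log2 difference 0.50, limma adjusted p = 0.0150) and the Eµ-deleted line (0.50, limma adjusted p = 0.0133). Of 15 cleavage and polyadenylation factors, 1 rose in CBE line 1 against WT, the poly(A) polymerase gene Papolg (1.06), which also rose in CBE line 2 (1.02). Of 11 transcription factors of histone genes none passed in CBE line 1 against WT (4 at an unadjusted p under 0.05), and of 12 histone chaperones 1 rose, Ipo4 (0.64). Ipo4 also rose in CBE line 2 against WT (0.92). Of the 22 S phase and proliferation genes 4 rose in each line against WT, and none was called between CBE line 1 and CBE line 2 (3 at an unadjusted p under 0.05).

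Among 10 tested histone genes outside the clusters, H1fx, a linker histone variant gene, was the only one called in CBE line 1 against WT. H1fx had 0.0154 and 0.0656 FPKM in CBE line 1, 22.8 and 23.9 FPKM in CBE line 2, 0.0977 and 0.370 FPKM in the Eµ-deleted line, and 2.89 and 1.91 FPKM in WT. It fell by 1.69 on the log2 scale in CBE line 1 (SE 0.17, limma adjusted p = 0.000736) and rose by 2.85 in CBE line 2 (limma adjusted p = 6.36e-05), so that the lines of the same genotype lay on opposite sides of WT.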

How the data were processed

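RNA from 8 libraries was analysed, 2 per line; per the labels' protocols RNA was prepared with RNeasy Plus and TruSeq stranded mRNA kits and sequenced as single 75 bp reads. The authors deposited FPKM values with intervals per gene; TopHat, Cufflinks and mm9 stand in the submitters' processing notes, with versions and settings not stated there. FPKM of symbols at several loci were summed (7 members), and 21 symbols of a status other than OK were left out of tests. Reads were inferred from each interval, taken as 2 SD on each side.

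A gene was tested if at least 2 of 8 libraries reached an FPKM of 1 (10479 genes). Values of log2(FPKM + 1) were fitted in limma 3.58.1 (R 4.3.3) by moderated contrasts with a mean-variance trend, a spread shared by the 4 lines (4 residual and 2.65 prior degrees of freedom) and Benjamini-Hochberg adjustment at 0.05. The labels do not say that libraries of a line were separate cultures, so the p-values cover variation among libraries that may be only technical. Sequences were compared as 75-base windows of the coding sequence with BWA 0.7.19-r1273. mm9 and GRCm38 coordinates were not mixed.

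Members, lists and tests were chosen with earlier results of these data known. Values are given for the 3 members of highest mean FPKM in each type, the Hist3 and Hist4 genes, genes listed as polyadenylated or testis, and up to 6 called rises and falls per comparison. Of the other lists only some called genes are named, and further calls in these lists are left out. Genes named outside this rule, for sharing with H2afx, for pairs or for libraries that differ, were chosen after their values were seen.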

Additional observations from a re-analysis of the deposited data

Results flagged for a closer look

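Lines that share a genotype, or that are each set against WT, differed in the histone genes by a direct test between them, so the effects against WT differ. In CBE line 1 against CBE line 2, 18 members were called, and the named ones had log2 differences of 1.15 (Hist1h2be), 1.04 (Hist1h2bb), 1.04 (Hist1h2bl), 0.99 (Hist1h2bg), 0.99 (Hist1h2bh) and 0.97 (Hist1h2bj). In CBE line 1 against the Eµ-deleted line, 19 members were called, with 1.47 (Hist1h4d), 1.41 (Hist1h2bj), 1.26 (Hist1h3c), 1.13 (Hist1h2bg), 1.05 (Hist1h2bb) and 1.03 (Hist1h2bk). All are limma differences of log2(FPKM + 1), adjusted over all genes, and both comparisons use the same CBE line 1 libraries.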

How the results depend on the processing

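The 21 named calls were each recomputed in 19 or 20 settings, which gave 401 recomputed calls. Of these, 289 stayed past the threshold, 112 did not, and 0 changed direction. Counts of members called higher in CBE line 1 against WT (25) ran from 6 to 27 when a library was left out, and were 15 with quantile normalization, 16 with only the compared libraries and 1 at a mean FPKM of 5 or more. Those against CBE line 2 (18) ran from 1 to 19, and were 7 and 1 in the last 2 settings. Those against the Eµ-deleted line (19) ran from 6 to 16, and were 10, 4 and 1 in these settings in turn and 12 with no filter. The Eµ-deleted count against WT (3) ran from 0 to 5, and was 0 with quantile normalization, 0 at a mean of 5 or more and 1 with a pseudocount of 5. For CBE line 2 against WT it stayed at 0 in the leave-outs, and was 2 higher and 2 lower with only the compared libraries. Counts of members called lower ran from 0 to 5 in CBE line 1 against WT, 0 to 1 for CBE line 2 and also for the Eµ-deleted line against WT (1 in the Eµ-deleted line with only the compared libraries), 0 against CBE line 2 and 0 to 1 against the Eµ-deleted line. The log2 ratio of summed FPKM was 0.55 for CBE line 1 against WT (0.45 to 0.64 in leave-outs, 0.0907 for members of mean 5 or more, 1.15 without H2A), 0.59 against CBE line 2 (0.49 to 0.68, 0.19, 1.07), 0.40 against the Eµ-deleted line (0.23 to 0.60, 0.0072, 0.91), -0.04 for CBE line 2 against WT (-0.10 to 0.02, -0.16 with quantile normalization, 0.0846 without H2A) and 0.15 for the Eµ-deleted line against WT (-0.05 to 0.32). The sum without H2A was chosen after seeing the data. Apart from fewer genes or libraries, the cause was not tested.

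Same-numbered libraries deviated together from their line means, with correlations of 0.28 to 0.50 between lines, but each comparison has 2 pairs and no label says what the numbers share, so they were not used as pairs. With the replicate block, 32 members were called higher in CBE line 1 against WT, 28 against CBE line 2, 23 against the Eµ-deleted line, 5 up and 2 down (Hist1h3c among them) for the Eµ-deleted line against WT, and 0 in CBE line 2 against WT. About 3228 to 5983 histone reads per library, spread over 68 genes with shared sequence, limit single genes of low FPKM.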
